A study of Caenorhabditis elegans with 12 samples.

Results

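The insulin receptor pathway of Caenorhabditis elegans was followed through its 10 core genes, daf-2, ist-1, age-1, aap-1, daf-18, pdk-1, akt-1, akt-2, sgk-1 and daf-16. They were picked by name from the 46926 genes listed for the series. RNA was measured in whole L4 larvae of 4 strains, each with 3 biological replicates (12 libraries), and every group was grown on HT115 bacteria that carry an empty vector. The strains were the double mutant nuo-6(qm200);itr-1(sa73), the single mutant nuo-6(qm200), the single mutant itr-1(sa73) and the wild type N2. nuo-6 encodes a subunit of mitochondrial complex I, and itr-1 encodes the receptor for inositol trisphosphate that releases calcium from the endoplasmic reticulum. A library pooled whole animals of a culture of about 1000 worms, germ line included, so fewer cells of a type and less RNA per cell cannot be told apart. The series title names the question, whether calcium release through this receptor takes part in the longevity that mitochondrial stress brings.

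In this pathway, insulin-like peptides bind the receptor DAF-2, which activates a phosphoinositide 3-kinase made of the catalytic subunit AGE-1 and the adaptor AAP-1. The phosphatase DAF-18 removes the lipid messenger that the kinase makes. The messenger recruits PDK-1, which activates the kinases AKT-1, AKT-2 and SGK-1, and the AKT kinases keep the FOXO transcription factor DAF-16 out of the nucleus. Worms with weak DAF-2 signalling live long in a way that depends on DAF-16, and the pathway also governs dauer formation, fat storage and stress resistance. The activity of these proteins depends largely on phosphorylation and on their place in the cell, which transcript levels do not measure.

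Levels are given in TPM, which scales transcripts to a fixed total per library and corrects for their length, so that genes can be compared within a library. Changes are log2 folds on the log2(TPM + 1) scale with their standard error, from limma fitted to all 12 libraries and to 15230 genes that reached 1 TPM in 3 or more of them. A gene is called higher or lower where the p-value of limma's moderated test, adjusted by Benjamini-Hochberg over all 15230 genes, was under 0.05. TPM keeps no read depth, so the spread between libraries is the only error shown. All 10 genes passed the filter, and the lowest value of any of them in any library was 2.68 TPM. The comparisons of the 3 mutants with N2 share the same N2 libraries, so their values are set side by side and not counted as separate evidence.

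The libraries differed in ways that touch these genes. Defining markers of body wall muscle, intestine, hypodermis, neurons, pharynx, germ line and oocytes were detected in every strain, and none was at 0. The summed level of 20 oocyte genes was 448 to 1242 TPM in the double mutant, 607 to 745 TPM in nuo-6 and 685 to 1629 TPM in itr-1, against 220 to 441 TPM in N2. Of these 20 genes, 18 were higher in the double mutant, 13 in nuo-6 and 20 in itr-1, each against N2. Of all genes tested, 46.3%, 37.3% and 29% were higher and 17%, 15% and 11.1% lower in these comparisons. These shares are also the background for the other marker counts against N2. An oocyte score, the mean log2(TPM + 1) of the 20 genes, was highest in replicate 2 of all 4 strains and reached 5.66, 4.79, 5.96 and 4.17 in the order double mutant, nuo-6, itr-1 and N2. Neuron markers summed to 419 to 440 TPM in the double mutant, 373 to 416 TPM in nuo-6 and 310 to 324 TPM in itr-1, against 273 to 287 TPM in N2. Of these 5 markers, 5, 4 and 1 were higher in these mutants and 0 lower, with median folds of 0.39, 0.30 and 0.19. Higher and lower among 5 body wall muscle markers were 0 and 4, 1 and 1, and 0 and 3. Among 10 germline markers they were 2 and 3, 1 and 3, and 3 and 0. Hypodermis markers summed to 269 to 308, 282 to 329 and 248 to 371 TPM in these mutants, against 497 to 532 TPM in N2. These 5 hypodermis markers did not move together, as 2 were higher and 1 lower in the double mutant, 1 and 1 in nuo-6, and 2 and 2 in itr-1. What part these cell types had in the changes below was not tested. Cytosolic ribosomal protein genes held 22.7 to 24.1% of all TPM in the double mutant, 21.7 to 22% in nuo-6 and 25.9 to 27.4% in itr-1, against 27.2 to 28.5% in N2. The median gene had a positive fold against N2, of 0.25 in the double mutant, 0.18 in nuo-6 and 0.14 in itr-1. With the ribosomal protein genes removed and TPM rescaled to the same total, these medians were 0.19, 0.09 and 0.13. Median-of-ratios scaling moved these medians by -0.26, -0.18 and -0.15, and each fold below is to be read against the median of its comparison.

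All 10 pathway genes were higher in the double mutant than in N2. daf-2, ist-1 and daf-16 stood out in size, with folds of 0.99, 1.10 and 1.01 in log2 units. Of the 15230 genes tested, 46.3% were higher, 17% were lower and 63.3% changed in that comparison. In nuo-6 against N2, 4 of 10 pathway genes were higher (daf-2, ist-1, aap-1 and daf-16), where 37.3% of all genes were higher, 15% lower and 52.3% changed. In itr-1 against N2, 8 of 10 were higher, all but pdk-1 and akt-2, where 29% of all genes were higher, 11.1% lower and 40.1% changed. Every mutant library lay above every N2 library for 10 of 10 pathway genes in the double mutant, 6 in nuo-6 and 8 in itr-1, as it did for 48.2%, 46.1% and 36.3% of all genes. No pathway gene was lower in any comparison, at the adjusted p of limma or at an unadjusted p under 0.05. The median fold of the 10 genes was 0.66 in the double mutant, 0.31 in nuo-6 and 0.37 in itr-1.

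**Figure D1:**
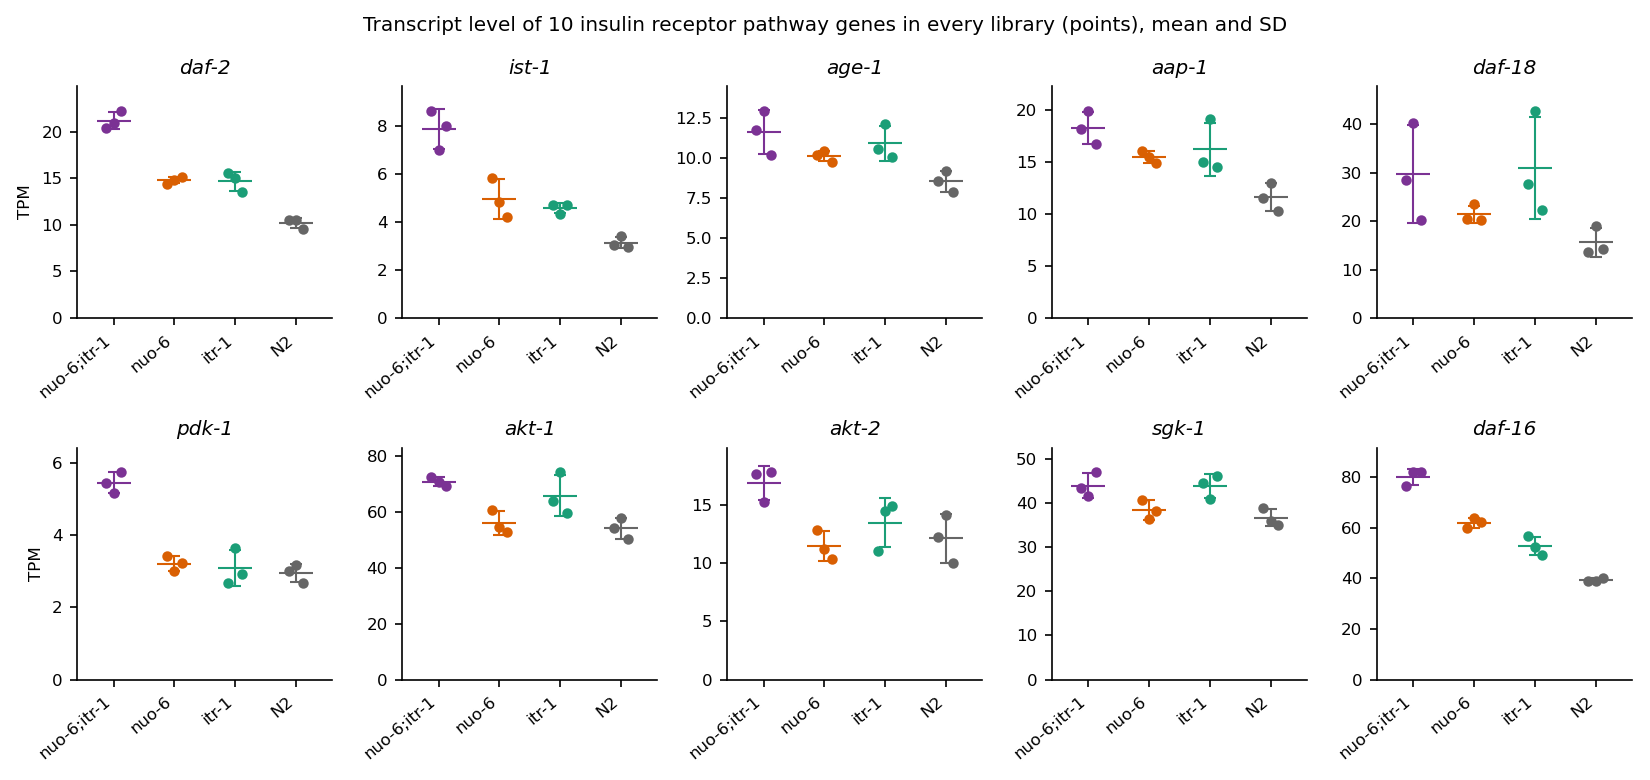
TPM of the 10 pathway genes in each of the 12 libraries (points), with the mean and SD of the 3 libraries of a strain (bars); each vertical axis starts at 0. Every double mutant library is above those of all other strains for daf-2, ist-1, pdk-1, akt-2 and daf-16, while daf-18 spreads from 20.3 to 40.4 TPM among the double mutant libraries and from 22.4 to 42.8 TPM among those of itr-1.

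The receptor gene daf-2 (WBGene00000898, chromosome III, 2994514 to 3040846, minus strand, WBcel235) had 7 annotated transcripts that the table does not separate. It stood at 20.4, 20.9 and 22.2 TPM in the double mutant, 14.4, 14.8 and 15.1 TPM in nuo-6, and 15.5, 14.99 and 13.5 TPM in itr-1, against 10.5, 10.6 and 9.58 TPM in N2. The libraries of both single mutants lay between those of the double mutant and those of N2 without overlap, and the single mutants overlapped each other. In mean TPM, daf-2 was 2.08-fold higher in the double mutant, 1.45-fold in nuo-6 and 1.44-fold in itr-1, each over N2. The log2 fold was 0.99 ± 0.07 in the double mutant (adjusted p = 1.11e-06), 0.50 ± 0.07 in nuo-6 (adjusted p = 0.000213) and 0.48 ± 0.07 in itr-1 (adjusted p = 0.000682). It was also higher in the double mutant than in nuo-6 by 0.49 (adjusted p = 0.00152) and higher than itr-1 by 0.50 (adjusted p = 0.000327). These 5 calls held under each of the 24 other settings tried, with folds over N2 of 0.64 to 1.05, 0.23 to 0.53 and 0.24 to 0.54 in the double mutant, nuo-6 and itr-1.

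ist-1 (WBGene00002163, chromosome X, 7126648 to 7139666, plus strand) encodes an insulin receptor substrate homologue, an adaptor that links the receptor to the kinase. It was a low gene at 8.61, 6.99 and 7.97 TPM in the double mutant, 5.83, 4.81 and 4.2 TPM in nuo-6, and 4.68, 4.33 and 4.69 TPM in itr-1, against 3.05, 3.40 and 2.94 TPM in N2. Its strains were ordered as those of daf-2, with the double mutant above both single mutants and these above N2 in every library. Over N2, its log2 fold was 1.10 ± 0.11 in the double mutant (adjusted p = 1.21e-05), 0.52 ± 0.11 in nuo-6 (adjusted p = 0.00287) and 0.43 ± 0.11 in itr-1 (adjusted p = 0.0125). The double mutant was higher than nuo-6 by 0.58 (adjusted p = 0.00662) and higher than itr-1 by 0.67 (adjusted p = 0.000901). The call in nuo-6 was lost with quantile normalization, at 0.22 (adjusted p = 0.109). The call in itr-1 was lost with that normalization, with median-of-ratios scaling and with the oocyte score as a covariate, at 0.19, 0.29 and 0.54 (adjusted p of 0.201, 0.0564 and 0.0756).

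The phosphoinositide 3-kinase genes moved less. age-1 (WBGene00000090, chromosome II, 11519328 to 11527054, minus strand), the catalytic subunit, stood at 11.7, 12.9 and 10.1 TPM in the double mutant, 10.2, 10.4 and 9.75 TPM in nuo-6, and 10.5, 12.1 and 10.05 TPM in itr-1, against 8.56, 9.16 and 7.84 TPM in N2. The 3 mutants overlapped each other, and every mutant library lay above every N2 library. Its log2 fold over N2 was 0.40 ± 0.10 in the double mutant (adjusted p = 0.00526), 0.22 ± 0.10 in nuo-6, which did not pass (adjusted p = 0.0838), and 0.32 ± 0.10 in itr-1 (adjusted p = 0.0277). With the replicate number as a block, the fold of 0.22 in nuo-6 passed (adjusted p = 0.0224). It also passed with only nuo-6 and N2 fitted. With the oocyte score as a covariate the folds over N2 were 0.13, 0.02 and -0.00, and none passed (adjusted p of 0.238, 0.883 and 0.991). The call in the double mutant was also lost under median-of-ratios scaling, at 0.13, and quantile normalization, at 0.04. The call in itr-1 was lost at 0.16 and 0.08 under these scalings, without itr-1 replicate 2 at 0.25 (adjusted p = 0.099), without N2 replicate 1 at 0.33 (adjusted p = 0.0677) and without N2 replicate 3 at 0.27 (adjusted p = 0.0973). It was also lost with only itr-1 and N2 fitted, and without the libraries numbered 2 of all strains.

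aap-1 (WBGene00000001, chromosome I, 5107843 to 5110183, plus strand), the adaptor of that kinase, stood at 18.2, 19.96 and 16.8 TPM in the double mutant, 16.1, 15.5 and 14.9 TPM in nuo-6, and 15, 19.2 and 14.6 TPM in itr-1, against 11.6, 12.998 and 10.3 TPM in N2. N2 was the lowest strain in every library, and itr-1 overlapped both other mutants. The log2 fold over N2 was 0.62 ± 0.11 in the double mutant (adjusted p = 0.000756), 0.39 ± 0.11 in nuo-6 (adjusted p = 0.0142) and 0.45 ± 0.11 in itr-1 (adjusted p = 0.0112). The double mutant call held under each of the 24 other settings. The call in nuo-6 was lost under 5 settings, including the omission of N2 replicate 3 at 0.31 (adjusted p = 0.0596) and the oocyte covariate at 0.15 (adjusted p = 0.203). The call in itr-1 was lost under both scalings, at 0.28 and 0.20, and with the oocyte covariate, at 0.07 (adjusted p = 0.74).

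daf-18 (WBGene00000913, chromosome IV, 420011 to 425177, minus strand), the phosphatase that opposes the kinase, varied most between replicates. It stood at 28.5, 40.4 and 20.3 TPM in the double mutant, 20.5, 23.5 and 20.3 TPM in nuo-6, and 27.8, 42.8 and 22.4 TPM in itr-1, against 13.7, 19.05 and 14.2 TPM in N2. Every N2 library lay below every mutant library. Replicate 2 was the highest library in all 4 strains, as it was for age-1 and for the oocyte score. The coefficient of variation reached 34.2% for daf-18 in itr-1, the highest of any pathway gene and strain, against 2.14% for daf-16 in N2, the lowest. The log2 fold over N2 was 0.85 ± 0.26 in the double mutant (adjusted p = 0.014), 0.44 ± 0.26 in nuo-6, which did not pass (adjusted p = 0.17), and 0.91 ± 0.26 in itr-1 (adjusted p = 0.0179). With the replicate number as a block, the fold of 0.44 in nuo-6 passed (adjusted p = 0.0233). It also passed as higher with only nuo-6 and N2 fitted, and without the libraries numbered 2 of all strains. With the oocyte score as a covariate the folds were -0.04 (adjusted p = 0.747), -0.25 (adjusted p = 0.0337) and -0.17 (adjusted p = 0.346). The sign thus turned in all 3 strains, and the negative fold passed in nuo-6, although every nuo-6 library lay above every N2 library. The scores of N2 (3.29 to 4.17) did not overlap those of nuo-6 (4.56 to 4.79), itr-1 (4.795 to 5.96) or the double mutant (4.31 to 5.66). The adjusted folds therefore compare strains at scores that they did not share. The part of the oocyte genes in these changes was not tested beyond that fit. The double mutant call was lost without double mutant replicate 2, at 0.60 (adjusted p = 0.0554), and under median-of-ratios scaling and quantile normalization, at 0.57 and 0.54. The itr-1 call was lost without itr-1 replicate 2 at 0.65, without N2 replicate 1 at 0.82 and without N2 replicate 3 at 0.85 (adjusted p of 0.0653, 0.0634 and 0.0583).

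**Figure D2:**
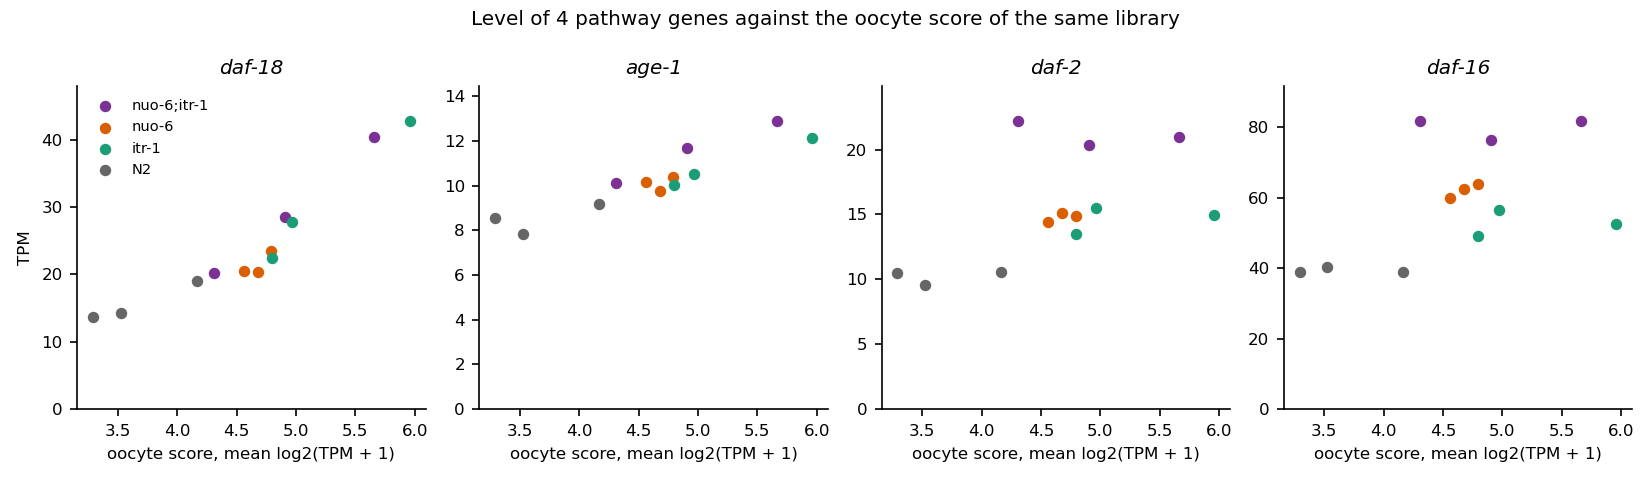
TPM of daf-18, age-1, daf-2 and daf-16 (vertical axes, from 0) against the oocyte score of the same library, the mean log2(TPM + 1) of 20 oocyte genes (horizontal axes), with 3 points per strain. Replicate 2 of each strain has both the highest score and the highest daf-18 and age-1, which is so in 1 of 4 strains for daf-2 and 2 of 4 for daf-16.

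pdk-1 (WBGene00003965, chromosome X, 1321344 to 1327986, plus strand), which encodes the kinase that activates the AKT kinases, behaved otherwise. It stood at 5.45, 5.17 and 5.75 TPM in the double mutant, 3.42, 3.00 and 3.22 TPM in nuo-6, and 2.69, 3.64 and 2.94 TPM in itr-1, against 3.02, 3.18 and 2.68 TPM in N2. Every double mutant library lay above all 9 others, and the single mutants overlapped N2. Over N2, its log2 fold was 0.71 ± 0.10 in the double mutant (adjusted p = 0.000152), while nuo-6 stood at 0.09 (95% interval -0.14 to 0.32, adjusted p = 0.486) and itr-1 at 0.04 (-0.19 to 0.27, adjusted p = 0.769). The double mutant was higher than nuo-6 by 0.62 (adjusted p = 0.00304) and higher than itr-1 by 0.66 (adjusted p = 0.000532). These 3 calls held under each of the 24 other settings.

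akt-1 (WBGene00000102, chromosome V, 10248905 to 10252845, plus strand) was among the highest pathway genes at 72.5, 70.5 and 69.2 TPM in the double mutant, 60.7, 54.5 and 52.6 TPM in nuo-6, and 63.7, 74.1 and 59.7 TPM in itr-1, against 54.2, 57.8 and 50.3 TPM in N2. nuo-6 overlapped N2, and itr-1 overlapped the double mutant and nuo-6. Its log2 fold over N2 was 0.38 ± 0.09 in the double mutant (adjusted p = 0.00258), 0.05 in nuo-6 (95% interval -0.14 to 0.24, adjusted p = 0.669) and 0.27 ± 0.09 in itr-1 (adjusted p = 0.0268). Its level was higher in the double mutant than in nuo-6 by 0.34 (adjusted p = 0.0237). The fold of the double mutant over N2 was 0.09 under median-of-ratios scaling (adjusted p = 0.357) and 0.23 with the oocyte covariate (adjusted p = 0.0974). The itr-1 call was lost under the same settings and without itr-1 replicate 2 at 0.19, N2 replicate 1 at 0.28 or N2 replicate 3 at 0.22 (adjusted p of 0.0934, 0.0668 and 0.0972). The call against nuo-6 was lost without double mutant replicates 1 or 3, or nuo-6 replicates 2 or 3, at 0.32, 0.35, 0.32 and 0.29 (adjusted p of 0.0851, 0.0553, 0.0803 and 0.101), and with median-of-ratios scaling, at 0.25 (adjusted p = 0.0739). The itr-1 call and the call against nuo-6 were also lost without the libraries numbered 2 of all strains. With only itr-1 and N2 fitted, the itr-1 call was lost too.

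akt-2 (WBGene00000103, chromosome X, 14147700 to 14152070, plus strand), the other AKT kinase, stood at 17.6, 15.2 and 17.8 TPM in the double mutant, 12.9, 11.2 and 10.4 TPM in nuo-6, and 11.04, 14.5 and 14.9 TPM in itr-1, against 12.2, 14.1 and 9.99 TPM in N2. Each double mutant library was above all others, and the remaining strains overlapped. Over N2, its log2 fold was 0.46 ± 0.14 in the double mutant (adjusted p = 0.0154), -0.06 in nuo-6 (95% interval -0.37 to 0.25, adjusted p = 0.73) and 0.14 in itr-1 (-0.17 to 0.45, adjusted p = 0.438). The double mutant was higher than nuo-6 by 0.52 (adjusted p = 0.0311), and its 0.31 over itr-1 did not pass (adjusted p = 0.0919). The call over N2 was lost without N2 replicate 3, at 0.34 (adjusted p = 0.0672), with the oocyte covariate, at 0.43 (adjusted p = 0.111), and under both scalings, at 0.18 and 0.11. The call over nuo-6 was lost without double mutant replicates 1 or 3, or nuo-6 replicates 2 or 3, at 0.49, 0.48, 0.51 and 0.45 (adjusted p of 0.105, 0.0931, 0.0911 and 0.123), and under both scalings, at 0.44 each (adjusted p of 0.0784 and 0.0748). It was also lost without the libraries numbered 2 of all strains.

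sgk-1 (WBGene00004789, chromosome X, 16254842 to 16262122, minus strand), a kinase related to AKT, differed least. It stood at 43.5, 41.6 and 47.1 TPM in the double mutant, 40.9, 36.5 and 38.2 TPM in nuo-6, and 44.7, 40.9 and 46.2 TPM in itr-1, against 39.1, 36.1 and 35.2 TPM in N2. The libraries of the double mutant and itr-1 lay above those of N2 by a small gap, and nuo-6 overlapped N2. The log2 fold over N2 was 0.25 ± 0.07 in the double mutant (adjusted p = 0.01), at the median of all genes, and -0.03 under median-of-ratios scaling, where the sign turned. It was 0.06 in nuo-6 (adjusted p = 0.475) and 0.25 ± 0.07 in itr-1 (adjusted p = 0.0195), the second of which was lost under both scalings, at 0.07 and 0.13. The itr-1 call was also lost without itr-1 replicate 1 at 0.24, itr-1 replicate 3 at 0.21 or N2 replicate 3 at 0.22 (adjusted p of 0.0531, 0.0572 and 0.0699). The double mutant call was lost under both scalings and with TPM rescaled without ribosomal protein genes. With the oocyte covariate, the double mutant and itr-1 calls held and sgk-1 also passed as higher in nuo-6 (adjusted p = 0.0317). The double mutant fold over nuo-6, 0.19 (adjusted p = 0.103), passed with that covariate (adjusted p = 0.0117).

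daf-16 (WBGene00000912, chromosome I, 10750498 to 10776703, plus strand), the FOXO factor at the end of the pathway, had 11 annotated transcripts, and the table gives their sum. It stood at 76.3, 81.8 and 81.8 TPM in the double mutant, 59.9, 63.8 and 62.3 TPM in nuo-6, and 56.6, 52.5 and 49.2 TPM in itr-1, against 38.8, 38.8 and 40.2 TPM in N2. No strain overlapped another, in the order double mutant, nuo-6, itr-1 and N2 from high to low. In mean TPM, daf-16 was 2.04-fold higher in the double mutant, 1.58-fold in nuo-6 and 1.34-fold in itr-1, each over N2. The log2 fold over N2 was 1.01 ± 0.06 in the double mutant (adjusted p = 2.77e-07), 0.65 ± 0.06 in nuo-6 (adjusted p = 9.16e-06) and 0.41 ± 0.06 in itr-1 (adjusted p = 0.000542). The double mutant was higher than nuo-6 by 0.36 (adjusted p = 0.00272) and higher than itr-1 by 0.59 (adjusted p = 3.01e-05). These 5 calls held under each of the 24 other settings, and with the oocyte covariate the folds over N2 were 0.99, 0.64 and 0.40.

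**Figure D3:**
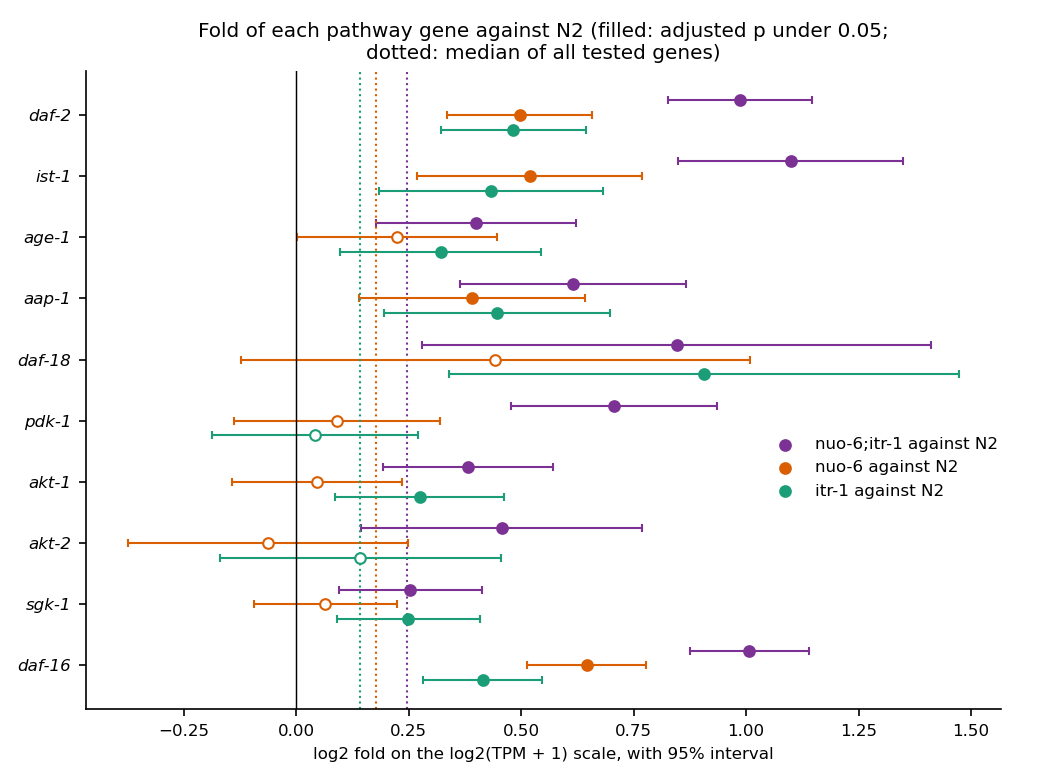
Log2 fold of each pathway gene against N2 (horizontal axis) with its 95% interval, for the double mutant, nuo-6 and itr-1; filled points passed at adjusted p under 0.05 and dotted lines mark the median fold of all 15230 genes in that comparison, 0.25, 0.18 and 0.14. daf-2, ist-1, age-1, aap-1, daf-18 and daf-16 lie above their lines in all 3 mutants, age-1 by only 0.05 in nuo-6, and pdk-1 does so in the double mutant alone.

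The order of the pathway genes by level changed at its top. In the double mutant, daf-16 at 80.0 ± 3.21 TPM (SD, n = 3) stood above akt-1 at 70.7 ± 1.65 TPM and sgk-1 at 44.1 ± 2.75 TPM, with no overlap. In nuo-6, daf-16 and akt-1 overlapped at 62.0 ± 1.96 and 55.9 ± 4.23 TPM. In itr-1, akt-1 at 65.8 ± 7.46 TPM stood above daf-16 at 52.8 ± 3.70 TPM, and in N2 akt-1 at 54.1 ± 3.74 TPM stood above daf-16 at 39.3 ± 0.840 TPM. In N2, daf-16 overlapped sgk-1, at 36.8 ± 2.02 TPM. At the bottom, pdk-1 was below ist-1 without overlap in the 3 mutants, and in N2 the genes overlapped at 2.96 ± 0.257 and 3.13 ± 0.238 TPM. Between these ends, several neighbours could not be ordered, such as daf-2, aap-1 and akt-2 in itr-1 and N2.

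Ratios between partners within a library are given without a test. The ratio of daf-2 to daf-16 was 0.265 ± 0.00822 in the double mutant, 0.239 ± 0.00531 in nuo-6 and 0.278 ± 0.00645 in itr-1, against 0.260 ± 0.0192 in N2 (SD, n = 3 each). The ratio of the kinase age-1 to the phosphatase daf-18 was 0.411 ± 0.0903 in the double mutant, 0.473 ± 0.0281 in nuo-6 and 0.371 ± 0.0835 in itr-1, against 0.553 ± 0.0730 in N2. In N2 this ratio reached down to 0.481 and overlapped nuo-6 and the double mutant, whose highest libraries were at 0.498 and 0.501. The ratio of age-1 to aap-1 was 0.632 ± 0.0242, 0.653 ± 0.0186 and 0.674 ± 0.0372 in the double mutant, nuo-6 and itr-1, against 0.735 ± 0.0285 in N2. akt-1 exceeded akt-2 by 4.21-fold, 4.88-fold and 4.97-fold in the double mutant, nuo-6 and itr-1, against 4.52-fold in N2.

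The double mutant was then compared with each single mutant, which asks what the second mutation added. Against nuo-6, 6 of 10 pathway genes were higher, namely daf-2, ist-1, pdk-1, akt-1, akt-2 and daf-16, where 9.99% of all genes were higher, 5.46% lower and 15.4% changed. The median fold of the 10 genes was 0.38 and that of all genes was 0.07. Against itr-1, 4 of 10 were higher, namely daf-2, ist-1, pdk-1 and daf-16, where 29.3% of all genes were higher, 16.4% lower and 45.7% changed, and the medians were 0.24 and 0.09. Every double mutant library lay above every nuo-6 library for 8 pathway genes and above every itr-1 library for 5, against 27.2% and 33.8% of all genes. Under median-of-ratios scaling, 4 of 10 were higher in each of these comparisons. Of all genes under that scaling, 820 were higher and 1200 lower against nuo-6, and 3188 higher and 3524 lower against itr-1. In both comparisons, daf-2, ist-1, pdk-1 and daf-16 passed under each setting tried. Marker genes of other cells also differed in these comparisons. Against nuo-6, 4 of 5 body wall muscle and 2 of 6 adult yolk markers were lower, and 2 of 4 intestine and 1 of 5 neuron markers were higher. Against itr-1, 6 of 6 yolk, 6 of 10 germline and 3 of 5 muscle markers were lower, and 4 of 5 neuron markers were higher, while 2 of 4 intestine markers were higher and 2 lower. The yolk markers summed to 71.8 to 707 TPM in the double mutant, 573 to 1524 TPM in nuo-6 and 685 to 3735 TPM in itr-1, against 206 to 1113 TPM in N2. None of the 20 oocyte genes passed limma's test in either comparison, and at an unadjusted p under 0.05 there was 1 against nuo-6 and 0 against itr-1. The part of these markers in the folds of the pathway genes was not tested.

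Each double mutant fold over N2 was set beside the sum of the folds of the single mutants, and the difference between them is the interaction of the 2 mutations. For daf-2 the sum was 0.98 and the double mutant 0.99, and for daf-16 the sum was 1.06 and the double mutant 1.01. The interaction was 0.01 for daf-2 (95% interval -0.22 to 0.23, adjusted p = 0.975) and -0.05 for daf-16 (-0.24 to 0.13, adjusted p = 0.72). For pdk-1 the sum was 0.13 and the double mutant 0.71, an interaction of 0.57 ± 0.15 (0.25 to 0.90, adjusted p = 0.0312). pdk-1 was the 1 pathway gene of 10 whose interaction passed, where 3.69% of all genes had a positive, 8.32% a negative and 12% any interaction by the same test. This call was lost in 8 of the 12 fits that left out a library, in each of which the interaction stayed between 0.50 and 0.58. The adjusted p was 0.0669 and 0.0611 without double mutant replicates 1 and 3, 0.0811 and 0.0709 without nuo-6 replicates 2 and 3, 0.0568 and 0.0564 without itr-1 replicates 1 and 3, and 0.073 and 0.0599 without N2 replicates 1 and 2. For daf-18 the sum was 1.35 and the double mutant 0.85, and for akt-2 the sum was 0.08 and the double mutant 0.46, but the intervals of their interactions (-1.30 to 0.30 and -0.06 to 0.82) included 0.

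**Figure D4:**
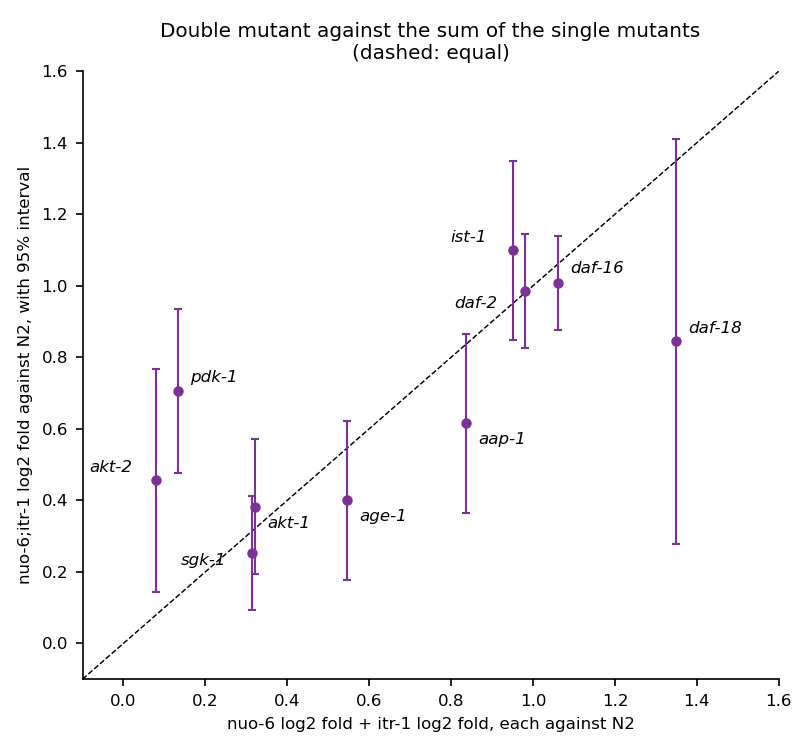
Log2 fold of the double mutant over N2 with its 95% interval (vertical axis) against the sum of the nuo-6 and itr-1 log2 folds over N2 (horizontal axis), 1 point per pathway gene, with the dashed line where both are equal. daf-2 and daf-16 lie on the line, and pdk-1 lies above it at 0.71 against 0.13.

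Across the 12 libraries, daf-2 and daf-16 had a Pearson correlation of 0.968 in log2(TPM + 1), daf-2 and ist-1 of 0.941, age-1 and aap-1 of 0.97 and age-1 and daf-18 of 0.95. Those were the highest values among pairs of pathway genes, and the lowest was 0.383, for daf-18 and sgk-1. These are descriptions over libraries that share strain and oocyte score. The named genes most like daf-2 were delm-2, rcq-5 and spat-3 (r of 0.984, 0.982 and 0.979). Those most like daf-16 were nhr-22, lbp-1 and dip-2 (0.990, 0.983 and 0.983), and those most like sgk-1 were aqp-2, col-54 and sem-4 (0.952, 0.941 and 0.941). They were taken from 6536 named genes with at least 5 TPM on average.

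Scaling set how many pathway genes passed. Against N2, median-of-ratios scaling left 5 genes higher in the double mutant, 3 in nuo-6 and 3 in itr-1, and quantile normalization left 6, 2 and 4. Of all genes tested, median-of-ratios scaling left 4234, 3645 and 2525 higher in these mutants, and quantile normalization left 3754, 3176 and 2121. daf-2 and daf-16 were among the pathway genes left in each case. With the oocyte score as a covariate, a setting added once the data had been seen, 6 genes passed in the double mutant and 3 in itr-1. In nuo-6 this setting lost aap-1, gained sgk-1 as higher (adjusted p = 0.0317) and gave daf-18 a negative fold that passed. The score did not overlap between N2 and any mutant. The whole-worm data do not show in which cells any of these transcripts changed.

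**Figure D5:**
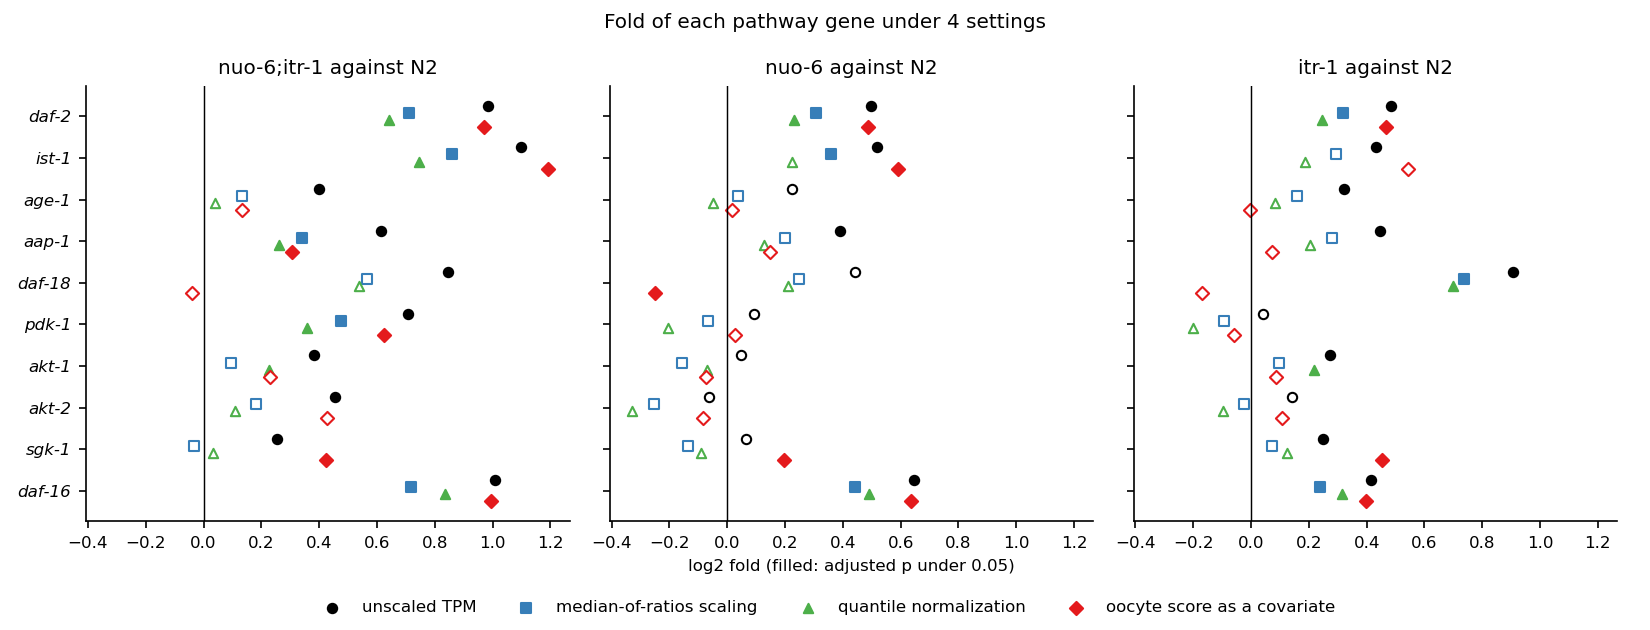
Log2 fold of each pathway gene against N2 (horizontal axes) in the double mutant, nuo-6 and itr-1 under unscaled TPM, median-of-ratios scaling, quantile normalization and with the oocyte score as a covariate; filled symbols passed at adjusted p under 0.05. daf-2 and daf-16 are filled under all 4 settings in all 3 panels, and daf-18 in itr-1 is at 0.91 with unscaled TPM and -0.17 with the oocyte covariate.

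The insulin-like ligands, peptides that bind DAF-2 as agonists or antagonists, were measured next. Of 40 listed, 27 passed the filter. Higher and lower were 14 and 1 in the double mutant, 10 and 1 in nuo-6 and 7 and 1 in itr-1, each against N2, where 46.3% and 17%, 37.3% and 15%, and 29% and 11.1% of all genes were. Their median folds were 0.50, 0.37 and 0.23, and those of all genes 0.25, 0.18 and 0.14. These shares and medians of all genes are the background for the unscaled counts and medians of each list that follows. Median-of-ratios scaling gave 9 and 2, 7 and 2, and 3 and 5 ligands higher and lower. Of all genes tested, it gave 4234 and 4603 in the double mutant, 3645 and 3851 in nuo-6, and 2525 and 3338 in itr-1. More were thus lower than higher in itr-1 among the ligands and among all genes alike. These counts of all genes are the background for each list count under that scaling below. ins-4 stood at 11.965 ± 2.01 TPM in the double mutant, 9.14 ± 0.517 TPM in nuo-6 and 5.67 ± 0.407 TPM in itr-1, against 4.40 ± 0.303 TPM in N2 (SD, n = 3 each), a log2 fold of 1.25 ± 0.11 in the double mutant (adjusted p = 3.94e-06) and 0.91 ± 0.11 in nuo-6 (adjusted p = 5.94e-05). ins-5 stood at 20.7 ± 4.71 TPM in the double mutant, 11.3 ± 1.32 TPM in nuo-6 and 7.15 ± 1.18 TPM in itr-1, against 4.82 ± 0.980 TPM in N2, a fold of 1.89 ± 0.18 in the double mutant (adjusted p = 5.72e-06). ins-7, an agonist, was highest in itr-1, at 8.89 ± 2.15 TPM in the double mutant, 9.42 ± 2.23 TPM in nuo-6 and 19.6 ± 2.13 TPM in itr-1, against 8.33 ± 0.739 TPM in N2. Its fold in itr-1 was 1.14 ± 0.18 (adjusted p = 0.00104), or 0.96 with the oocyte covariate (adjusted p = 0.0647), and its interaction was -1.21 ± 0.26 (adjusted p = 0.0154).

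Of 30 listed regulators and partners of DAF-16, 27 passed the filter, and 19 were higher and 2 lower in the double mutant, 9 and 3 in nuo-6, and 10 and 0 in itr-1. Of all genes, 46.3%, 37.3% and 29% were higher. Their medians were 0.33, 0.15 and 0.13, beside 0.25, 0.18 and 0.14 for all genes, and median-of-ratios scaling gave 6 and 6, 1 and 7, and 1 and 6. skn-1, a stress transcription factor that the pathway also restrains, stood at 70.1 ± 2.46 TPM in the double mutant, 62.0 ± 4.14 TPM in nuo-6 and 49.2 ± 1.68 TPM in itr-1, against 39.3 ± 2.43 TPM in N2. Its fold was 0.82 ± 0.07 in the double mutant (adjusted p = 2.01e-06), 0.64 ± 0.07 in nuo-6 (adjusted p = 1.78e-05) and 0.32 ± 0.07 in itr-1 (adjusted p = 0.00417), the last of which was 0.14 under median-of-ratios scaling (adjusted p = 0.15) and, with the oocyte covariate, 0.32 ± 0.11 (adjusted p = 0.0718). hsf-1, the heat shock factor that acts with DAF-16, was higher by 0.60 ± 0.09 in the double mutant (adjusted p = 0.000209). prmt-1, an arginine methyltransferase that protects DAF-16 from AKT, stood at 253 ± 7.004 TPM in the double mutant, 214 ± 8.80 TPM in nuo-6 and 309 ± 12.2 TPM in itr-1, against 307 ± 6.90 TPM in N2, and fell by 0.52 ± 0.05 on the log2 scale in nuo-6 (adjusted p = 8.17e-06). par-5, a 14-3-3 protein that holds phosphorylated DAF-16 in the cytoplasm, fell by 0.25 ± 0.05 in nuo-6 (adjusted p = 0.00101).

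All 10 listed genes of the TOR branch, the nutrient-sensing kinase complexes that cross the insulin pathway, were tested, with 7 higher and 2 lower in the double mutant, 4 and 2 in nuo-6, and 4 and 1 in itr-1. Of all genes, 46.3% were higher and 17% lower in the double mutant, 37.3% and 15% in nuo-6, and 29% and 11.1% in itr-1. Their medians were 0.30, 0.19 and 0.23, beside 0.25, 0.18 and 0.14 for all genes, and median-of-ratios scaling gave 4 and 3, 3 and 4, and 0 and 3. rict-1, a subunit of TOR complex 2 that acts on AKT and SGK, stood at 16.203 ± 0.532 TPM in the double mutant, 13.95 ± 0.462 TPM in nuo-6 and 10.9 ± 1.15 TPM in itr-1, against 8.88 ± 0.522 TPM in N2. Its fold was 0.80 ± 0.08 in the double mutant (adjusted p = 1.17e-05) and 0.60 ± 0.08 in nuo-6 (adjusted p = 0.000138), and both calls held under each of the 24 other settings.

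Of 20 listed DAF-16 target genes, 17 passed the filter, and 14 were higher and 0 lower in the double mutant, 12 and 0 in nuo-6, and 10 and 0 in itr-1 by limma. Of all genes, 46.3%, 37.3% and 29% were higher in these comparisons. At an unadjusted p under 0.05, 1 target was lower in itr-1 and 0 in the other mutants. Their medians of 1.09, 0.96 and 0.57 lay above those of all genes, and median-of-ratios scaling gave 13 and 0, 9 and 1, and 8 and 3. sod-3, a mitochondrial superoxide dismutase, stood at 15.96, 15.9 and 17.5 TPM in the double mutant, 17.99, 18.3 and 18.4 TPM in nuo-6, and 3.93, 3.14 and 3.76 TPM in itr-1, against 1.87, 2.24 and 1.82 TPM in N2. nuo-6 lay above the double mutant in every library, and both lay far above itr-1 and N2, which did not overlap. Its fold was 2.55 ± 0.09 in the double mutant (adjusted p = 1.72e-08), 2.69 ± 0.09 in nuo-6 (adjusted p = 1.16e-08) and 0.63 ± 0.09 in itr-1 (adjusted p = 0.000552). Against nuo-6 the double mutant was at -0.14 (adjusted p = 0.312), and the interaction was -0.77 ± 0.13 (adjusted p = 0.00456).

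mtl-1, a metallothionein, was higher by 4.57 ± 0.24 in the double mutant (adjusted p = 1.38e-07), 4.48 ± 0.24 in nuo-6 (adjusted p = 2.28e-07) and 2.25 ± 0.24 in itr-1 (adjusted p = 7.62e-05). Its N2 libraries were under 1 TPM, where the size of the fold depends on the pseudocount, and it reached 6.16 in the double mutant under the other settings. fat-5, a fatty acid desaturase, stood at 35.8 ± 2.57 TPM in the double mutant, 17.6 ± 7.88 TPM in nuo-6 and 34.1 ± 14.6 TPM in itr-1, against 2.54 ± 0.908 TPM in N2, a fold of 3.25 ± 0.34 in itr-1 (adjusted p = 7.01e-05). In the double mutant against nuo-6, 4 of the 17 targets were higher, where 9.99% of all genes were, among them the catalase genes ctl-1 and ctl-2 at 0.78 ± 0.09 and 0.62 ± 0.13 (adjusted p = 0.00043 and 0.0112). These genes answer to other factors as well, so their levels do not measure DAF-16 activity. ctl-1 and ctl-2 are close copies, and how reads that match both were counted is not given in the sources used here.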

How the data were processed

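The deposited values are TPM per gene, computed by the authors from stranded, polyA-selected RNA libraries. The genome build was WBcel235, per the submitters' processing notes. Which aligner, counter, annotation version and strand setting were applied is not given in the sources used here. On the opposite strand, exons of age-1 overlap B0334.10 by 192 bases, those of aap-1 overlap Y110A7A.21 by 136 and those of daf-16 overlap a non-coding RNA by 84, so some reads of these genes could be shared. Each library sums to 1000000 TPM, so depth is unknown. Between 13879 and 14902 genes per library had at least 1 TPM, and no 2 libraries were identical. Groups come from the sample titles, and the labels call the replicates biological. Nothing in the labels ties equal replicate numbers of different strains to a shared batch or day. In nuo-6 and N2, all 3 same-numbered pairs had deviations from their strain means that correlated over 0.1 (0.112 to 0.16). Blocked values are therefore given where they change a call there. In the other pairs of strains 1 or 2 of 3 did. The highest same-numbered correlations, 0.506 for replicate 2 and 0.448 for replicate 3, were between the double mutant and itr-1.

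From the TPM values, log2(TPM + 1) was fitted over all 12 libraries with limma (version 3.58.1, under R 4.3.3) and its trended eBayes step, which had 8 residual degrees of freedom and 2.85 prior ones. The 6 comparisons were the 3 mutants against N2, the double mutant against each single mutant, and the interaction. P-values are two-sided and adjusted by Benjamini-Hochberg over all genes of a comparison. The fit was tested on simulated data with known folds. The pathway genes, gene lists and tests were chosen with earlier results of these data known. Of the other lists, the genes named are among the 3 with the smallest adjusted p per comparison, plus sod-3 and mtl-1, and every list gene whose interaction passed, a group named after the values were seen. Alternatives were pseudocounts of 0.1 and 0.5, no filter, a filter of 5 TPM, scaling by median of ratios or by quantiles, fits restricted to the strains compared, eBayes without trend, a block for the replicate number, and fits that left out 1 library each. Added after the data were seen were the oocyte score as a covariate, the omission of all libraries numbered 2, and TPM re-closed without ribosomal protein genes. Positions and names come from the WBcel235 annotation, in which all 46926 gene identifiers were found, and ins-38, sodh-1 and opt-2 were not matched by symbol. A second deposited sheet that lists strain names was not used. Summaries used pandas 2.3.3 and numpy 2.4.6 under Python 3.11.15, and matplotlib 3.10.9 drew the plots.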

Additional observations from a re-analysis of the deposited data

Results flagged for a closer look

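The effect of one mutation differed with the presence of the other, by the interaction term of the limma fit (adjusted p under 0.05 over all genes), for 10 of the 91 pathway and list genes tested, or 11%, where 12% of all genes had an interaction. A positive value means a double mutant level above the sum of the single mutant folds. pdk-1 had 0.57, and neither single mutant passed against N2. Among the insulin-like ligands, ins-7 had -1.21 and ins-27 had 0.60, and both calls were lost with the oocyte covariate, at -1.07 and 0.42 (adjusted p of 0.0932 and 0.0936). Among the regulators of DAF-16, prmt-1 had 0.23, a call that was lost in 14 of 23 other settings. Among the DAF-16 targets, mtl-1 had -2.16, sod-3 had -0.77, nnt-1 had -0.998, fat-5 had -2.19, sip-1 had -2.02 and ctl-1 had 0.45. The interactions of mtl-1, sod-3, nnt-1 and fat-5 passed under each of the 23 other settings, that of ctl-1 under 9 and that of sip-1 under 11. With the oocyte covariate, ctl-1 was at 0.28 and sip-1 at -0.59 (adjusted p of 0.299 and 0.125). pdk-1 passed under 13 of 23 settings.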

How the results depend on the processing

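Of the 60 folds of pathway genes, 33 passed and 17 of these passed under every alternative. Of 1430 values under alternatives, 71 lost the threshold, 10 gained it and 5 changed sign with a call on either side. Those 5 were, with the oocyte covariate, daf-18 at -0.25 in nuo-6, -0.17 in itr-1 and -0.0394 in the double mutant and age-1 at -0.0024 in itr-1, and, with median-of-ratios scaling, sgk-1 at -0.033 in the double mutant. Pathway genes changed against N2 were 2 in nuo-6 under quantile normalization. In itr-1 they were 3 with median-of-ratios scaling, 4 with quantile normalization and 3 with the oocyte covariate, and in the double mutant 5, 6 and 6. In nuo-6 the oocyte covariate lost aap-1 and gained sgk-1 as higher and daf-18 as lower. With the oocyte covariate 2033 of all genes changed in itr-1 against N2, 3892 in the double mutant against nuo-6 and 791 in the interaction. The interaction left 0 pathway genes with that covariate, where pdk-1 had an adjusted p of 0.0655, and 0 without the libraries numbered 2. Leaving out 1 library gave 4 to 8 pathway genes in itr-1 against N2 and 0 to 1 in the interaction, and 1144 to 2634 genes in the double mutant against nuo-6 and 867 to 2627 in the interaction. Median-of-ratios scaling turned the split of all genes higher and lower to 4234 and 4603 in the double mutant, 3645 and 3851 in nuo-6 and 2525 and 3338 in itr-1, from 7059 and 2588, 5676 and 2292, and 4413 and 1696. Quantile normalization turned it to 3754 and 4728, 3176 and 4297, and 2121 and 3032. Over all strains, 11 of 18 same-numbered pairs had a correlation of deviations over 0.1 (range -0.02 to 0.51), and all 3 pairs did in nuo-6 and N2 alone. The replicate number as a block gave 2762 genes with an interaction in place of 1829. Against N2 it gave 6 pathway genes in nuo-6, 8 in itr-1 and 10 in the double mutant. With it, 8633 of all genes changed in nuo-6 against N2, in place of 7968. Of the pathway genes the block changed the calls of age-1 and daf-18 in nuo-6, and no other. The cause of these differences was not tested. TPM holds no depth, so low genes such as pdk-1 and ist-1 have no counting interval.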
